A study of Mus musculus with 48 samples.

Results

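The genes described here are 49 genes of DNA repair pathways other than mismatch repair, measured by RNA-seq in the mouse striatum. They were chosen by symbol for base excision repair, nucleotide excision repair and the repair of DNA breaks, and all 49 were found among the 48795 genes of the count table. A filter on low counts kept 48 of the 49 for testing, and Rad51b was the member left out. The libraries came from 48 mice on a C57BL/6 background, with 4 females and 4 males in each of 6 genotypes. The genotypes were Q140 x Msh3-/-, Q140 x Msh3+/-, Q140, Msh3-/-, Msh3+/- and wild type (WT). Q140 mice model Huntington's disease by a knock-in that lengthens the CAG repeat of their own Htt gene, and by their labels all of them are heterozygous for it. Msh3 encodes a mismatch repair protein that binds small DNA loops, and no source used here says how its allele was inactivated. The labels state an age of 12 months, whereas their extraction text places dissection at 6 months, and which holds is not known. The design asks what the Q140 allele changes, what loss of Msh3 alleles changes without Q140, and what it changes in Q140 mice.

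Base excision repair removes single damaged bases. A DNA glycosylase cuts out the base, an endonuclease opens the backbone, and a polymerase and a ligase fill and seal the gap. Nucleotide excision repair cuts out a short stretch of strand around bulky damage, and a branch of it is started by RNA polymerase stalled on a damaged template. Breaks of both strands are either rejoined end to end or copied from a sister DNA molecule by homologous recombination, which is mostly used by dividing cells, and mature neurons do not divide. In Huntington's disease the inherited CAG repeat grows longer in striatal neurons, a process that needs Msh3 in mice, and the glycosylases Ogg1 and Neil1 have also been linked to repeat growth in mice.

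Sequencing depth, as the sum of counts per library, had a median of 47.3 M and lay between 38.9 M and 60.9 M. Levels are given as counts per M counts (CPM) scaled by the TMM method, or as the deposited FPKM, which is per length and depth, where genes are compared with each other. Msh3 itself had 103 to 126 CPM in Q140 x Msh3-/- mice, 68.4 to 81.5 CPM in Q140 x Msh3+/- mice and 28.5 to 32.5 CPM in Q140 mice. Without Q140 it had 118 to 126 CPM in Msh3-/- mice, 72 to 76.5 CPM in Msh3+/- mice and 26.4 to 30.9 CPM in WT mice. Msh3 counts therefore separated the labelled Msh3 genotypes without overlap, yet they were higher, not lower, where alleles are labelled as lost. Such counts, taken along the full gene, say nothing of whether a working protein is made. The Msh3 genotypes named below, and each direction given for them, are those of the labels. The 10 markers of the spiny projection neuron, the main cell type of the striatum, all passed the filter. Their summed level had a median of 9490 CPM in Q140 x Msh3-/- mice (8230 to 10700), 7630 CPM in Q140 x Msh3+/- mice (7050 to 8610) and 6860 CPM in Q140 mice (6340 to 7140). In the groups without Q140 the median was 12300 CPM in Msh3-/- mice (11300 to 12900), 12100 CPM in Msh3+/- mice (11900 to 12700) and 12100 CPM in WT mice (11400 to 12900). In such bulk tissue, fewer cells of a type and less RNA per cell cannot be told apart. In the variation left after genotype and sex, 4 libraries stood apart: female 1 of Q140 x Msh3+/-, male 1 of Q140 x Msh3-/-, and female 1 and male 1 of Msh3-/-. Counts of members that passed are given with and without them where they differ.

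Levels of the 49 genes spanned from 25.0 FPKM for Rad23b to 0.039 FPKM for Neil3, as means over the 48 mice. Genes acting after the glycosylase in base excision repair and genes of nucleotide excision repair were the more abundant groups, with medians over genes of 8.38 and 6.87 FPKM. The median was 4.01 FPKM for end joining genes, 1.9 FPKM for the glycosylases, 0.686 FPKM for the tested genes of end processing and homologous recombination, and 0.547 FPKM for the Fanconi anaemia and RecQ genes.

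Rad23b, which helps recognise damage in nucleotide excision repair, ranged from 22.0 to 28.1 FPKM over the 48 mice. Apex1, the main endonuclease that cuts at sites without a base, followed at 16.8 FPKM (13.5 to 20.3), below the Rad23b range. The next were Parp1, a sensor of single-strand breaks, at 13.2 FPKM (11.8 to 14.8), and Polb, the gap-filling polymerase of base excision repair, at 11.8 FPKM (9.38 to 14.2). The ranges of Apex1, Parp1 and Polb overlapped. At the other end, Brca1, Brca2, Palb2 and Rad51c, which act in homologous recombination, stood between 0.202 FPKM for Palb2 and 0.58 FPKM for Brca1. Rad51b, another gene of that pathway, had 0 to 11 counts per library, and Neil3, a glycosylase, had 0 to 30 counts. Between mice of 1 genotype, Trp53bp1 and Parp1 varied least, with mean coefficients of variation of 3.22% and 3.46%. Fanca and Fanci each varied by 29.0% and Neil3 by 58.6%, so changes in these rare RNAs were among the least precisely measured.

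**Figure D1:**
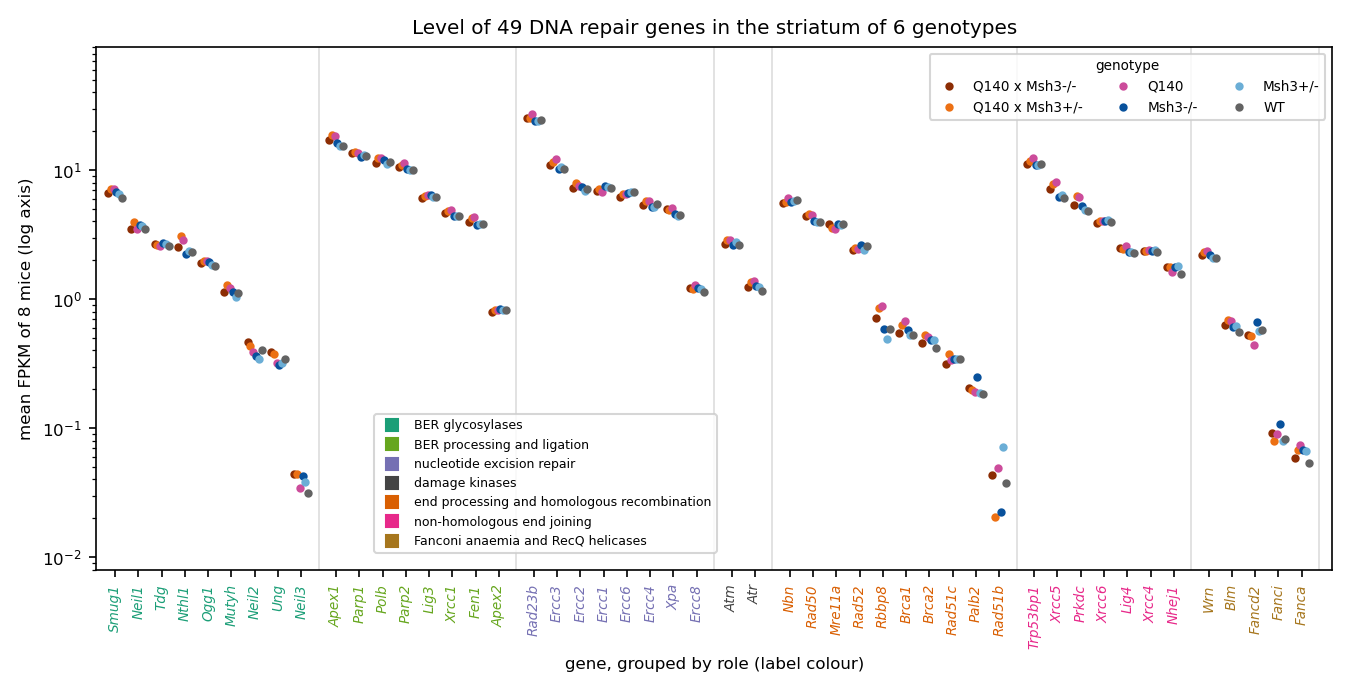
Mean FPKM of 8 mice on a log axis for each of the 49 genes, grouped by role, in each of the 6 genotypes. Genotypes of 1 gene lie close together for most genes, while the genes span from 25.0 FPKM for Rad23b to 0.039 FPKM for Neil3 as means over all mice.

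In Q140 mice set against WT mice, genes of break repair moved in both directions by small amounts. Xrcc5, Rbbp8, Brca1, Prkdc and Atr rose and Mre11a and Fancd2 fell. No glycosylase passed under the TMM scaling, and 2 of the 9 passed with total counts. Of the 48 tested members, 14 passed an adjusted p of 0.05 (29.2%), 10 higher and 4 lower in Q140. Over all 19714 genes tested, 33.0% passed, 17.0% higher and 16.0% lower, so the share among members was near that of all genes. The median log2 fold change was 0.07 over the members and 0.00 over all genes. Without the 4 libraries that stood apart, 17 members passed (35.4%), 12 higher and 5 lower, against 34.0% of all genes, 3454 higher and 3288 lower. When libraries were scaled by total counts instead, 24 members passed, 22 higher and 2 lower. Under that scaling 39.8% of all genes passed, 5773 higher and 2064 lower, and their median was 0.065 on the log2 scale. The tilt towards higher values was thus shared by the whole table and was not particular to the members.

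By pathway, 1 of 17 tested base excision repair genes passed, 3 of 8 nucleotide excision repair genes, and 10 of 23 break repair and damage kinase genes. Without the 4 libraries that stood apart these counts were 2, 4 and 11, against 34.0% of all genes. Of the 23 break repair and damage kinase genes, 7 passed (30.4%) without the 4 libraries lacking the name prefix Mh3Q. In that setting 26.8% of all genes passed. The count in base excision repair varied between settings. With total counts 7 of the 17 passed, against 39.8% of all genes under that scaling. With a term for plate column 3 passed, with Fen1 and Parp2 added, against 31.2% of all genes.

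**Figure D2:**
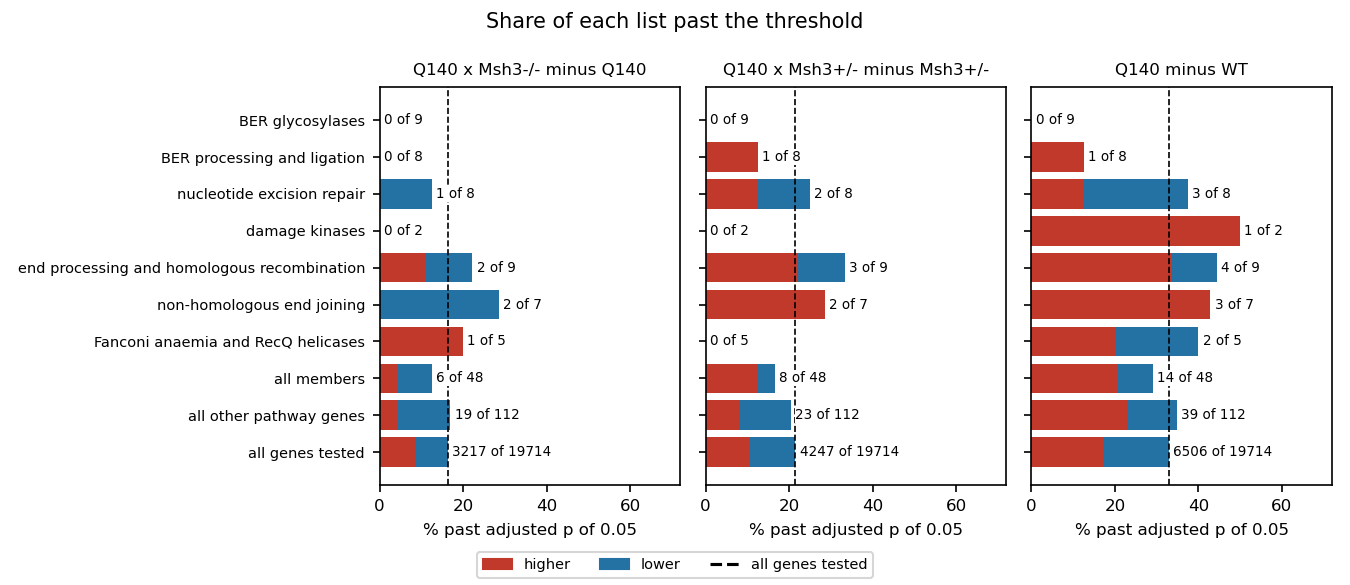
Percent of each list's tested genes past an adjusted p of 0.05 (x axis), split into higher (red) and lower (blue), for Q140 x Msh3-/- minus Q140, Q140 x Msh3+/- minus Msh3+/- and Q140 minus WT. The dashed line is the share of all genes tested, which was 16.3%, 21.5% and 33.0% from left to right, and 0 of the 9 glycosylases passed in each panel.

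The glycosylases recognise and remove damaged bases, and none of the 9 passed in Q140 against WT under the TMM scaling. Their log2 fold changes lay between -0.16 for Ung, which removes uracil, and 0.25 for Nthl1, which removes oxidised pyrimidines. Nthl1 had a lowest, median and highest value of 2.63, 3.03 and 3.62 CPM in Q140 mice, against 2.13, 2.62 and 2.87 CPM in WT mice. Its ranges overlapped and the difference did not pass (SE 0.114, adjusted p = 0.0858). With total counts, Nthl1 and Smug1, another uracil glycosylase, passed as higher. Ogg1, which removes oxidised guanine, differed by 0.07 (SE 0.0833, adjusted p = 0.587) and Neil1, which removes oxidised bases, by -0.07 (SE 0.0814, adjusted p = 0.582). Within genotypes the glycosylases had a median coefficient of variation of 12.3%, against 6.74% for end joining genes. It was 11.8% for end processing and recombination genes and 15.3% for Fanconi anaemia and RecQ genes. A glycosylase change that did not pass is therefore not shown to be absent.

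Of the 8 genes that act after the glycosylase, Apex1 passed and the other 7 did not. Apex1 (GRCm38 chromosome 14, 50924968 to 50927139, plus strand) had a lowest, median and highest value of 23.3, 25.1 and 28.7 CPM in Q140 mice, against 20.2, 22.9 and 23.8 CPM in WT mice. The ranges overlapped slightly, all 8 Q140 mice were above the WT mean, and the rise was 0.17 on the log2 scale (SE 0.0413, adjusted p = 0.000851). Of its exonic bases, 61.7% overlap Pip4p1 on the opposite strand. The strand setting of the counting is not given in the sources used here, so reads of the 2 genes may not be separate. The other 7 lay between -0.08 for Apex2, another endonuclease, and 0.12 for Fen1, the flap endonuclease. Xrcc1, the scaffold of single-strand break repair, differed by 0.07, Lig3, its ligase partner, by -0.03, Polb by 0.05, Parp1 by 0.01 and Parp2, a relative of Parp1, by 0.11 (adjusted p = 0.0613).

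In nucleotide excision repair, Ercc3 rose while Ercc1 and Ercc6 fell. Ercc3, which encodes the XPB helicase of the repair and transcription complex TFIIH, had a lowest, median and highest value of 31.0, 33.8 and 35.9 CPM in Q140 mice, against 27.5, 29.5 and 31.7 CPM in WT mice. The groups overlapped only at their edges, and the rise was 0.18 (SE 0.038, adjusted p = 0.000182). Ercc2, which encodes the partner helicase XPD, differed by 0.00 (SE 0.0469).

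Ercc1, the non-catalytic partner in a nuclease that cuts beside the damage, had a lowest, median and highest value of 17.5, 20.5 and 22.4 CPM in Q140 mice, against 19.7, 22.7 and 27.9 CPM in WT mice. It fell by 0.19 (SE 0.059, adjusted p = 0.00917), whereas Ercc4, the catalytic partner, differed by 0.02 (SE 0.0383). Ercc6, which encodes the CSB protein of the branch started by stalled polymerase, had 48, 52.8 and 58.6 CPM in Q140 mice and 53.3, 57.7 and 62.9 CPM in WT mice, with overlapping ranges. It fell by 0.13 (SE 0.0426, adjusted p = 0.0166), and Ercc8, which encodes CSA of the same branch, differed by 0.11 (SE 0.061, adjusted p = 0.171). With total counts neither Ercc1 (-0.12, adjusted p = 0.117) nor Ercc6 (-0.06, adjusted p = 0.31) passed. Xpa, the damage verification factor, differed by 0.11 and Rad23b by 0.08 (adjusted p = 0.053), and neither passed.

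Of the damage kinases, Atr, which responds to single-stranded DNA, rose by 0.19 (SE 0.0432, adjusted p = 0.00039). Its lowest, median and highest values were 30.7, 32.0 and 33.1 CPM in Q140 mice, against 25.3, 28.2 and 32.0 CPM in WT mice. In all 8 Q140 mice it lay above the WT mean, and the highest WT value fell within the Q140 range. Atm, which responds to double-strand breaks, differed by 0.06 (SE 0.0431, adjusted p = 0.27).

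The MRN complex binds and trims DNA ends, and its 3 genes did not share a direction. Mre11a, its nuclease, had a lowest, median and highest value of 18.5, 20.5 and 22.1 CPM in Q140 mice, against 21.5, 22.8 and 25.8 CPM in WT mice. It fell by 0.20 (SE 0.0407, adjusted p = 0.000106), with all 8 Q140 mice below the WT mean. Rad50, its ATPase, had 21.4, 23.9 and 25.1 CPM in Q140 mice and 19.9, 21.9 and 24.1 CPM in WT mice, and rose by 0.12 (SE 0.0456, adjusted p = 0.0338), with 7 of 8 Q140 mice above the WT mean. Nbn, its adaptor, differed by -0.01 (SE 0.0524). The Rad50 rise did not pass with no filter (adjusted p = 0.0556) or without the 4 libraries whose names lack the prefix Mh3Q (0.07, adjusted p = 0.387). These are 2 Q140 libraries, both prefixed Msh3Q, and 2 WT libraries, prefixed MQC and PQ.

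Rbbp8 and Brca1 also rose. Rbbp8, which encodes the end-resection factor CtIP, had a lowest, median and highest value of 2.63, 3.37 and 3.94 CPM in Q140 mice, against 1.67, 2.34 and 3.16 CPM in WT mice. Its rise of 0.52 (SE 0.119, adjusted p = 0.000398, 1.44-fold) was the largest among the members that passed in this comparison, at a low level of 141 to 208 counts per Q140 library and 77 to 138 per WT library. Brca1, a recombination factor that counters the blocking of end trimming, had 4.64, 5.72 and 6.18 CPM in Q140 mice, against 3.03, 4.68 and 5.23 CPM in WT mice. It rose by 0.30 (SE 0.0891, adjusted p = 0.00706), with all 8 Q140 mice above the WT mean and the ranges overlapping. Brca2, another recombination factor, differed by 0.19 (SE 0.111), Palb2, which links the Brca1 and Brca2 proteins, by -0.02, Rad51c by -0.09 and Rad52, which anneals single strands, by -0.13 (adjusted p = 0.0522), and Rad52 passed under 5 of 11 alternatives, DESeq2 among them.

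End joining starts with the Ku ring, made of the products of Xrcc5 and Xrcc6. Xrcc5 (chromosome 1, plus strand) had a lowest, median and highest value of 18.2, 20.4 and 21.9 CPM in Q140 mice, against 14.1, 15.9 and 18.2 CPM in WT mice. It rose by 0.34 (SE 0.0463, adjusted p = 3.05e-08, 1.27-fold). Its Q140 and WT ranges did not overlap, although both round to the same value where they meet. How many of all genes had ranges without overlap was not counted, here or on the other Msh3 backgrounds. Xrcc6, its partner, differed by -0.06 (SE 0.0502, adjusted p = 0.346).

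Prkdc encodes the DNA-dependent kinase that Ku recruits. It had a lowest, median and highest value of 67.4, 82.5 and 85.6 CPM in Q140 mice, against 54.7, 66.1 and 74.7 CPM in WT mice, and rose by 0.29 (SE 0.0634, adjusted p = 0.000247), with all 8 Q140 mice above the WT mean. Trp53bp1, which protects ends from trimming, had 161, 170 and 177 CPM in Q140 mice, against 150, 161 and 171 CPM in WT mice. Its rise of 0.07 (SE 0.0265, adjusted p = 0.0257) was the smallest to pass. It did not pass with a term for plate column (adjusted p = 0.0787) or with no filter (adjusted p = 0.0592). Nor did it pass without the 4 libraries of other name prefixes (adjusted p = 0.055). Of the exonic bases of Trp53bp1, 15.0% overlap Tubgcp4 on the opposite strand. Lig4, the end joining ligase, differed by 0.11 (adjusted p = 0.081), and its partners Xrcc4 and Nhej1 by -0.02 and -0.02.

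In the Fanconi anaemia pathway, which repairs DNA cross-links, Fancd2 fell and the other 2 members did not pass. Fancd2 had a lowest, median and highest value of 2.84, 3.27 and 4.23 CPM in Q140 mice, against 4.17, 4.83 and 5.18 CPM in WT mice. In all 8 Q140 mice it was below the WT mean, and it fell by 0.47 (SE 0.106, adjusted p = 0.000351). Fanci, whose product pairs with that of Fancd2, differed by 0.02 with an SE of 0.231, and Fanca, a subunit of the complex that modifies this pair, by 0.38 with an SE of 0.222. Of the RecQ helicases, which unwind joined DNA strands, Wrn rose by 0.14 (SE 0.0532, adjusted p = 0.0423) and Blm differed by 0.20 (SE 0.101, adjusted p = 0.13). Wrn had 15.9, 17.7 and 20.3 CPM in Q140 mice and 13.5, 15.9 and 18.0 CPM in WT mice, with overlapping ranges. Wrn did not pass without the 4 libraries of other name prefixes (0.04, adjusted p = 0.645), with no filter (adjusted p = 0.0647) or with a replicate block.

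**Figure D3:**
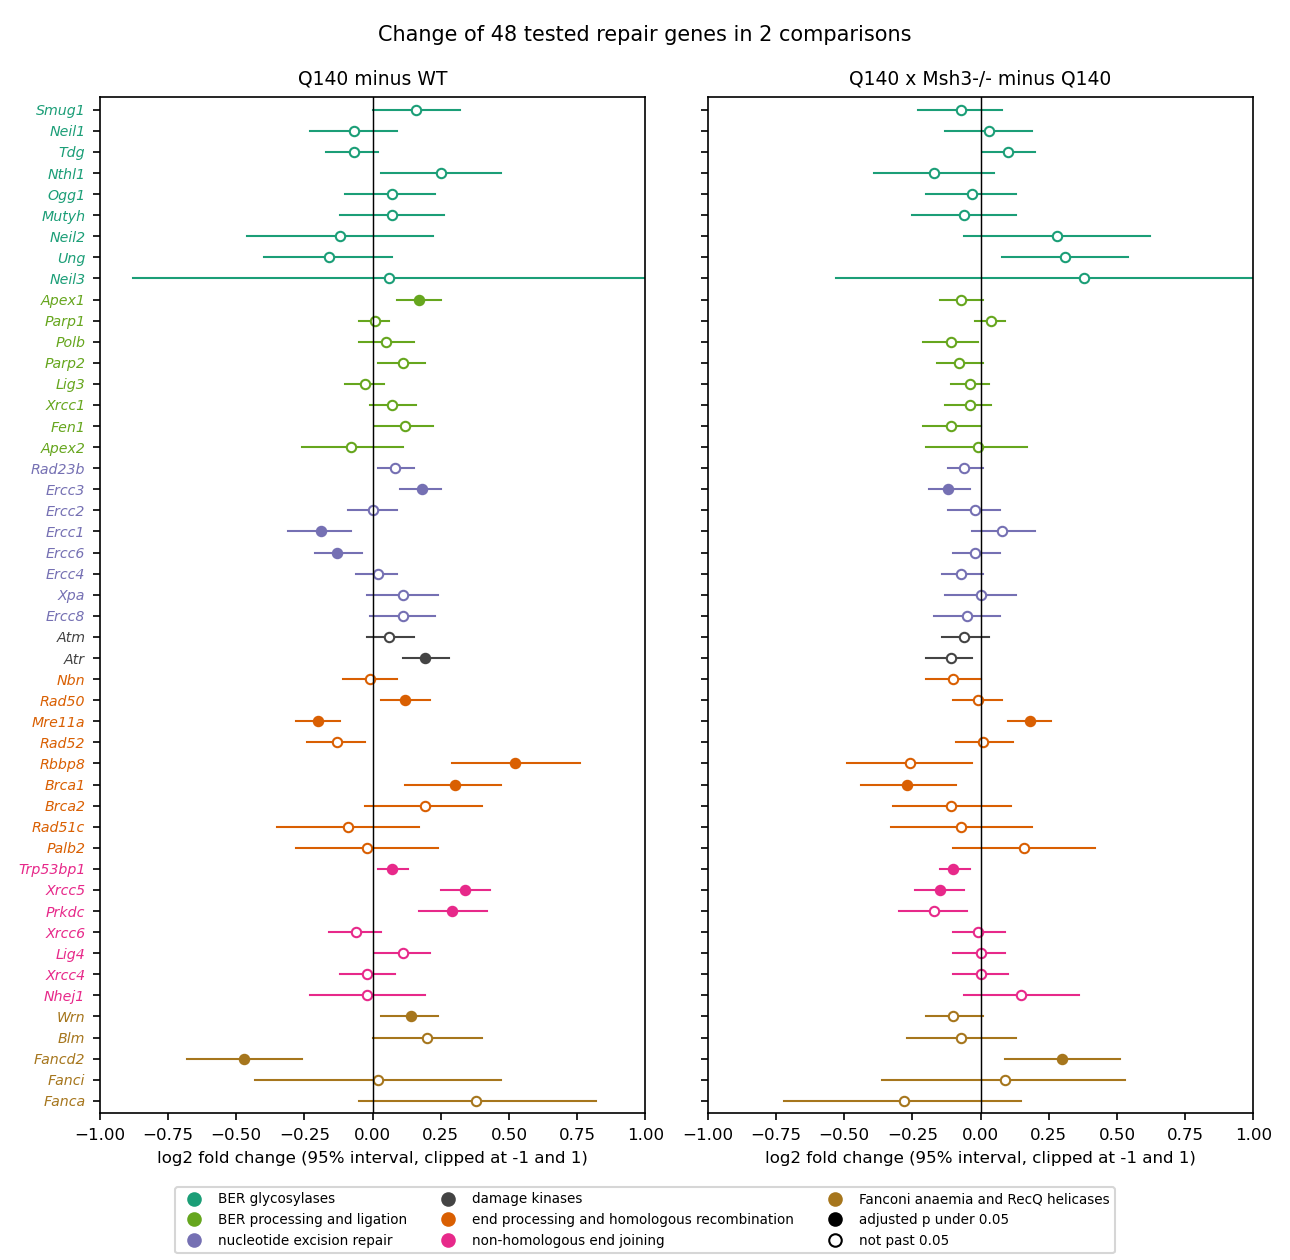
Log2 fold change with its 95% interval (x axis, intervals clipped at the axis ends) of the 48 tested members (rows, coloured by role) in Q140 minus WT and in Q140 x Msh3-/- minus Q140. Filled points passed an adjusted p of 0.05, 14 in Q140 minus WT and 6 in Q140 x Msh3-/- minus Q140, and both panels share the 8 Q140 libraries.

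Cell type markers also moved in this comparison. Of the 10 spiny projection neuron markers, 9 fell and 1 rose in Q140 against WT. Of 10 markers each, 6 microglial, 6 astrocyte, 4 oligodendrocyte, 8 endothelial and mural and 5 interneuron markers fell, and none in these lists rose. Of 6 oligodendrocyte precursor markers, 1 rose and 2 fell. The summed microglial markers had 398 to 464 CPM in Q140 mice and 477 to 573 CPM in WT mice, and the astrocyte markers 4310 to 4670 CPM in Q140 mice and 4990 to 5440 CPM in WT mice. Many recombination genes act in dividing cells, so 12 genes of cycling cells were also read. Their summed level was 20.7 to 29.4 CPM in Q140 mice and 17.5 to 29.9 CPM in WT mice, and Tpx2 (log2 1.16) and Kif11 (0.68) rose. All markers of these lists passed the filter, and their part in the changes of the repair genes was not tested.

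Further genes of the same pathways were read in 6 lists. In Q140 against WT, 39 of 112 passed (34.8%), 26 higher and 13 lower, beside the 33.0% of all genes. With total counts 43 were higher and 7 lower (44.6%), against 39.8% of all genes, 5773 higher and 2064 lower. Of 15 other base excision repair genes, 4 rose and 1 fell. Mbd4, a glycosylase for mismatched thymine, fell by 0.27 (SE 0.0572, adjusted p = 0.000127), and Pcna, the sliding clamp, and Usp47, a deubiquitinase of the gap-filling polymerase, rose by 0.17 and 0.11. Of 23 other nucleotide excision repair genes, 7 rose and 2 fell. Cetn2, a damage recognition subunit, rose by 0.40 (SE 0.0461, adjusted p = 4.38e-10), Rpa1, which coats single-stranded DNA, rose by 0.18, and Gtf2h2, a TFIIH subunit, fell by 0.18.

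Of 30 other recombination genes, 8 rose and 4 fell. Xrcc2, which acts in strand exchange, rose by 0.46 (SE 0.0728, adjusted p = 9.46e-07), Top3a, a topoisomerase that works with Blm, by 0.38, and Rad51ap1, an accessory factor, by 0.58. Of 10 other end joining genes, Rif1, which acts with Trp53bp1, rose by 0.19 and Tdp2, which frees ends of trapped topoisomerase, fell by 0.19. Of 13 other Fanconi anaemia genes, Ube2t, the ubiquitin-conjugating enzyme for Fancd2, rose by 0.58, while the core complex genes Fancb and Fance fell by 0.63 and 0.21. Of 21 damage signalling genes, 5 rose and 3 fell. Clspn, which passes the signal of Atr to its target kinase, fell by 1.40 (SE 0.0951, adjusted p = 2.58e-16). Rnf8, a ubiquitin ligase at breaks, fell by 0.35 and Rnf168, which acts after it, rose by 0.19.

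Promoters of 4 members are printed to show the sequence ahead of genes that the results turn on, 3 that rose (Xrcc5, Brca1 and Atr) and 1 that fell (Mre11a) in Q140. Each is the 250 bases before the annotated start, from RefSeq on GRCm38.p6, 5′ to 3′ on the strand of the gene. Capitals mark matches to the cores CCAAT (NFY) and GGGCGG (Sp1) on either strand, so that ATTGG and CCGCCC are matches too. Xrcc5 is chr1:72307171-72307420 (plus), Brca1 is chr11:101551956-101552205 (minus), Atr is chr9:95857347-95857596 (plus) and Mre11a is chr9:14784404-14784653 (plus).
Xrcc5: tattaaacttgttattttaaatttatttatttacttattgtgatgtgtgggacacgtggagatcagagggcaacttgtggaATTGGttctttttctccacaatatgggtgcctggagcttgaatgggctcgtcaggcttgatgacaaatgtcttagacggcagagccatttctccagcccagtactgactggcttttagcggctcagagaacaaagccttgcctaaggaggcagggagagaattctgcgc
Brca1: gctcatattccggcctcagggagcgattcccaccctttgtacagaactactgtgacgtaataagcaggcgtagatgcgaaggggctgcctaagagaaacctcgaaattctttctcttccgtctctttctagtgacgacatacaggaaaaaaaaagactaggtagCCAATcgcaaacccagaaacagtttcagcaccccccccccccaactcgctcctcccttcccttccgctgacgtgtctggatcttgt
Atr: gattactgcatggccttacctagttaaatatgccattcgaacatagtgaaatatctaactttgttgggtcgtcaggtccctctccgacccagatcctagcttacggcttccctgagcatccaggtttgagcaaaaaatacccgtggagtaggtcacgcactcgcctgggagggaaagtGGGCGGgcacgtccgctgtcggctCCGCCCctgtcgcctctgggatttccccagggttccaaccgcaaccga
Mre11a: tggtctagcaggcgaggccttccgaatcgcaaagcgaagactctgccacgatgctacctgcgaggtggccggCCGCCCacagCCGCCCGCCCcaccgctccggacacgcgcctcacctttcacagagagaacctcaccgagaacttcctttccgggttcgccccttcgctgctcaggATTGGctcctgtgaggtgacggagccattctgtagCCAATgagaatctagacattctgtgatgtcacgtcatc
In these 250 bases, Xrcc5 and Brca1 each held 1 CCAAT match, starting 169 and 86 bases before the start. Atr held 2 Sp1 matches, at 72 and 48 bases. Mre11a held 3 Sp1 matches at 178, 168 and 164 bases, of which the last 2 overlap, and 2 CCAAT matches at 73 and 38 bases.

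Over the 39 members whose promoters were in the RefSeq table, here taken from 250 bases before to 50 after the start, 53.8% held CCAAT and 71.8% held GGGCGG. Over all 32851 promoters of that table the shares were 37.4% and 35.7%. The NRF1 core GCATGCGC was found in 17.9% of the members' promoters, against 2.71% of all, and an E2F core (TTTGGCGC, TTTCGCGC or TTTCCCGC) in 10.3% against 1.84%. The cyclic AMP element TGACGTCA was found in 5.13% of the members' promoters and 1.79% of all. The members' promoters were also richer in G and C, with a median of 59.3% against 52.7%, and these shares were not tested. Of the 8 matched members that passed in Q140 against WT, 0 held an E2F core in this window. A match describes the letters and is no measure of binding.

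Without Q140, loss of Msh3 alleles changed no repair gene past the threshold. In Msh3-/- mice against WT mice, 0 of the 48 members passed by edgeR's quasi-likelihood test and 0 by DESeq2, with 3 at an unadjusted p under 0.05, and 0.0457% of all genes passed. In Msh3+/- mice against WT mice the count was 0 by edgeR and 0 by DESeq2, with 1 at an unadjusted p under 0.05, and 0.0101% of all genes passed. The member with the smallest p was Palb2 in Msh3-/- mice (log2 0.42, SE 0.133, adjusted p = 0.81) and Rbbp8 in Msh3+/- mice (-0.27, SE 0.123, adjusted p = 0.981). Xrcc4 and Ercc8 lie on chromosome 13 with Msh3, 2.12 and 15.8 Mb away. In Msh3-/- mice against WT mice, Xrcc4 differed by 0.01 (SE 0.0508) and Ercc8 by 0.08 (SE 0.0614).

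In Q140 mice, loss of both Msh3 alleles came with changes in 6 repair genes. Mre11a and Fancd2 rose, and Ercc3, Brca1, Xrcc5 and Trp53bp1 fell, in Q140 x Msh3-/- mice against Q140 mice. The 6 are 12.5% of the 48 tested, 2 higher and 4 lower, against 16.3% of all genes, 8.75% higher and 7.57% lower. The median log2 fold change was -0.05 over the members and 0.00 over all genes. Without the 4 libraries that stood apart, 8 members passed, 2 higher and 6 lower, against 16.8% of all genes. Atr, Prkdc and Ung were added and Fancd2 was lost. With total counts 10 passed (20.8%), 1 higher and 9 lower, against 21.1% of all genes, 1283 higher and 2869 lower.

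Mre11a had a lowest, median and highest value of 21.2, 22.5 and 24.4 CPM in Q140 x Msh3-/- mice, against 18.5, 20.5 and 22.1 CPM in Q140 mice. It rose by 0.18 (SE 0.0407, adjusted p = 0.00127), and all 8 Q140 x Msh3-/- mice were above the Q140 mean. Mre11a was also the 1 member to pass between the Q140 crosses, a comparison in which 3.23% of all genes passed. There it rose by 0.16 (SE 0.0407, adjusted p = 0.0115) in Q140 x Msh3-/- mice against Q140 x Msh3+/- mice, which had 18.9, 20.1 and 21.8 CPM. That call was lost with total counts (adjusted p = 0.0775) and on the FPKM values (adjusted p = 0.0737). Under both, Apex1 and Prkdc passed instead, for 0 higher and 2 lower. Of all genes, 4.72% passed with total counts, 252 higher and 679 lower. On the FPKM values it was 4.49%, 228 higher and 657 lower. Without the 4 libraries, and by DESeq2, Prkdc passed as lower beside Mre11a, against 3.45% and 4.31% of all genes.

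Fancd2 had a lowest, median and highest value of 3.37, 4.14 and 4.92 CPM in Q140 x Msh3-/- mice, against 2.84, 3.27 and 4.23 CPM in Q140 mice. Its rise of 0.30 (SE 0.106, adjusted p = 0.0436) was close to the threshold and did not pass in 6 of 11 alternatives. Among these were the fits without the 4 libraries (adjusted p = 0.0949), with total counts (adjusted p = 0.0805), with no filter (adjusted p = 0.0605), without the sex term (adjusted p = 0.0521) and on the FPKM values (adjusted p = 0.0999). Xrcc5 had 17.5, 18.0 and 19.5 CPM in Q140 x Msh3-/- mice, against 18.2, 20.4 and 21.9 CPM in Q140 mice, and fell by 0.15 (SE 0.046, adjusted p = 0.0165). The Ku gene thus kept a median in Q140 x Msh3-/- mice near the highest WT value. Brca1 had 3.68, 4.81 and 5.33 CPM in Q140 x Msh3-/- mice, against 4.64, 5.72 and 6.18 CPM in Q140 mice, and fell by 0.27 (SE 0.0889, adjusted p = 0.0307).

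Ercc3 had a lowest, median and highest value of 28.7, 31.1 and 32.2 CPM in Q140 x Msh3-/- mice, against 31.0, 33.8 and 35.9 CPM in Q140 mice, and fell by 0.12 (SE 0.0379, adjusted p = 0.0281). Trp53bp1 had 152, 159 and 165 CPM in Q140 x Msh3-/- mice, against 161, 170 and 177 CPM in Q140 mice, and fell by 0.10 (SE 0.0265, adjusted p = 0.0071). For each of the 4 genes that fell, all 8 Q140 x Msh3-/- mice were below the Q140 mean. With a term for plate column, Brca1 (adjusted p = 0.126), Ercc3 (adjusted p = 0.0668) and Xrcc5 (adjusted p = 0.051) did not pass. Without the libraries of other name prefixes, which leaves out 2 Q140 mice, Brca1 (adjusted p = 0.137), Ercc3 (adjusted p = 0.0644) and Xrcc5 (adjusted p = 0.0524) did not pass either. With no filter Brca1 (adjusted p = 0.0532) and Ercc3 (adjusted p = 0.0661) were lost too. In the same comparison 9 of 10 spiny projection neuron markers rose, as did 3 microglial, 2 astrocyte, 2 endothelial and mural and 1 interneuron markers of 10 each, while Tpx2 fell among 12 cycling cell markers. Their part in the 6 changes was not tested.

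Prkdc narrowly missed the threshold (log2 -0.17, SE 0.0633, adjusted p = 0.0514), and it passed as lower with total counts, on the FPKM values, with the plate column term, by DESeq2 and without the 4 libraries. Other members that passed in Q140 against WT but not here included Atr (-0.11, SE 0.0431, adjusted p = 0.0592), which passed as lower with total counts, on the FPKM values and without the 4 libraries, and Rbbp8 (-0.26, SE 0.118, adjusted p = 0.124). Apex1 differed by -0.07, Rad50 by -0.01, Wrn by -0.10, Ercc1 by 0.08 and Ercc6 by -0.02. The Q140 libraries are shared with the comparison against WT, so the values of the 2 comparisons are not independent. No glycosylase passed, and Ung came nearest (log2 0.31, SE 0.118, adjusted p = 0.0605). Ung passed as higher with the stricter filter and without the 4 libraries. Of the 112 other pathway genes, 5 rose and 14 fell (17.0%), beside 16.3% of all genes. Without the 4 libraries 4 rose and 12 fell, beside 16.8% of all genes. Xrcc2 fell by 0.43 (SE 0.0727, adjusted p = 1.63e-05) and Cetn2 by 0.21 (SE 0.0458, adjusted p = 0.000699), while Fancb rose by 0.48 (SE 0.0755, adjusted p = 3.44e-06) and Clspn by 0.54 (SE 0.0959, adjusted p = 4.7e-05).

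Loss of 1 Msh3 allele in Q140 mice changed no repair gene past the threshold. In Q140 x Msh3+/- mice against Q140 mice, 0 of 48 members passed by edgeR and 0 by DESeq2, with 6 at an unadjusted p under 0.05, and 1.32% of all genes passed. Without the 4 libraries 0 members and 0.776% of all genes passed. The member with the smallest p was Rad23b (log2 -0.10, SE 0.0336, adjusted p = 0.119). Xrcc5 differed by -0.07 (SE 0.0459) and Mre11a by 0.01 (SE 0.0408).

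**Figure D4:**
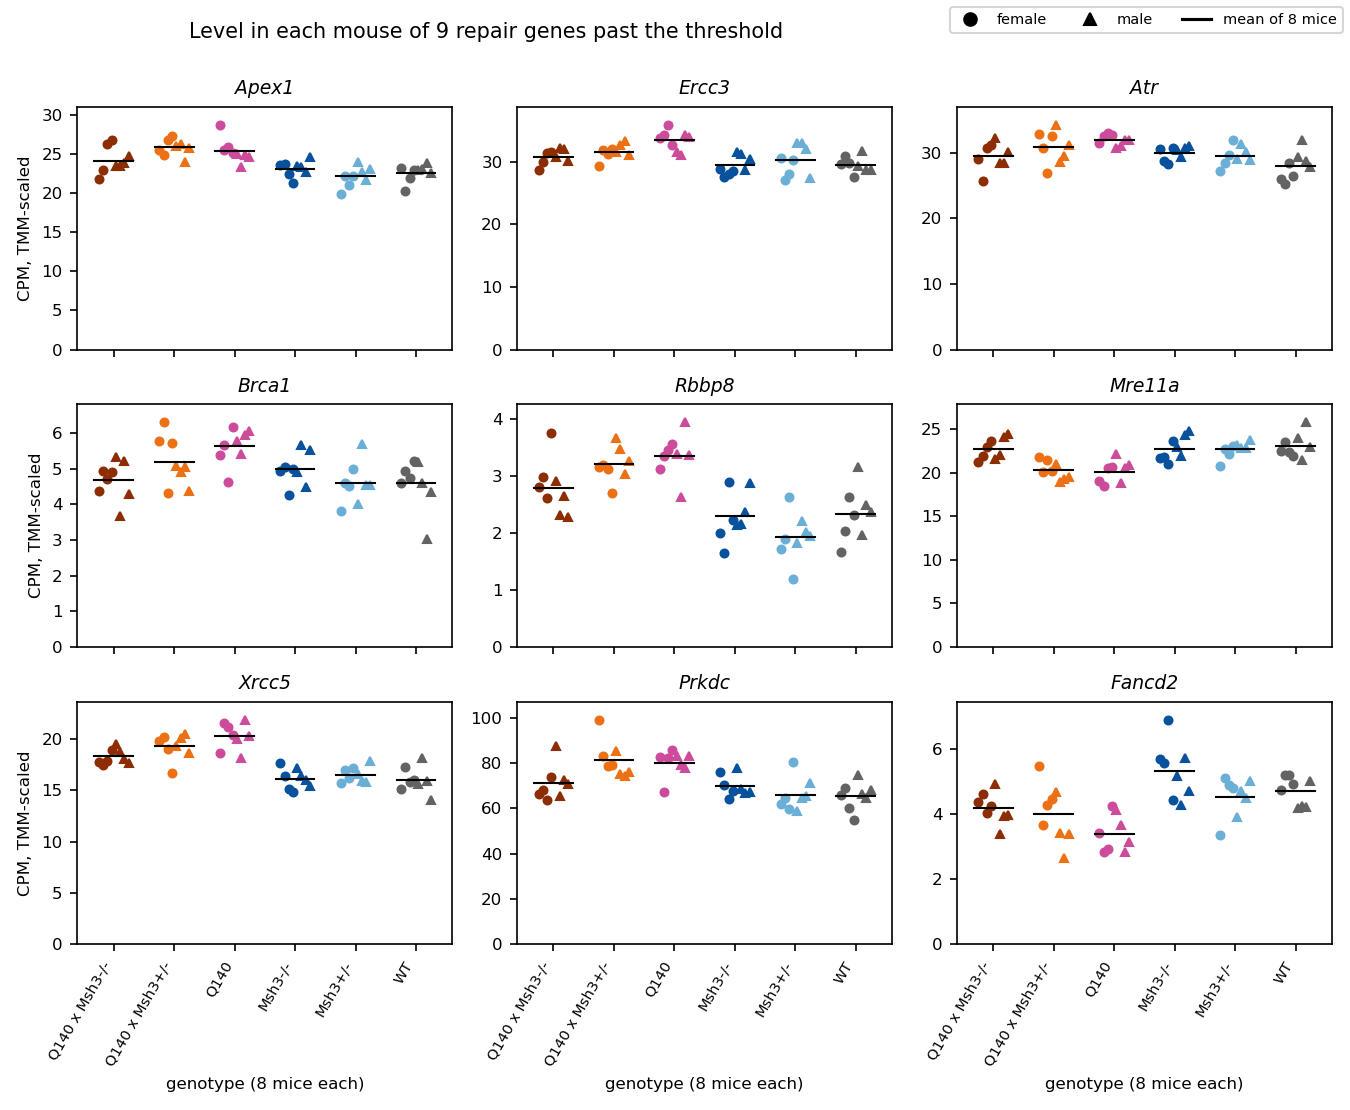
CPM of each mouse (y axis) for 9 members in the 6 genotypes (x axis), with circles for females, triangles for males and a line at the mean of 8 mice. Xrcc5 lies higher in Q140 mice than in WT mice, with ranges that meet where both round to 18.2 CPM. The mean of Mre11a is lower in Q140 and Q140 x Msh3+/- mice than in the other 4 genotypes.

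The Q140 effect was next read on the other Msh3 backgrounds. In Q140 x Msh3+/- mice against Msh3+/- mice, 8 members passed (16.7%), 6 higher and 2 lower, against 21.5% of all genes, 10.8% higher and 10.8% lower. With total counts 18 passed, 18 higher and 0 lower, against 29.7% of all genes, 4507 higher and 1351 lower. Without the 4 libraries 9 passed, 7 higher and 2 lower, against 21.5% of all genes. Rbbp8 had a lowest, median and highest value of 2.7, 3.17 and 3.67 CPM in Q140 x Msh3+/- mice, against 1.19, 1.92 and 2.62 CPM in Msh3+/- mice. Its ranges did not overlap, and it rose by 0.73 (SE 0.121, adjusted p = 5.02e-06, 1.66-fold). Apex1 had 23.9, 25.8 and 27.2 CPM in Q140 x Msh3+/- mice, against 19.9, 22.2 and 23.9 CPM in Msh3+/- mice, and rose by 0.22 (SE 0.0414, adjusted p = 3.57e-05). The Apex1 ranges met without overlapping, again at a value that rounds alike.

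Prkdc rose by 0.31 (SE 0.0634, adjusted p = 0.000239) and Xrcc5 by 0.22 (SE 0.0463, adjusted p = 0.000233) on that background, each higher in all 8 Q140 x Msh3+/- mice than the Msh3+/- mean. Rad50 rose by 0.14 (SE 0.0456, adjusted p = 0.0171), higher in 6 of 8. Ercc2, the XPD helicase, had a lowest, median and highest value of 31.1, 31.5 and 34.8 CPM in Q140 x Msh3+/- mice, against 26.7, 28.8 and 33.0 CPM in Msh3+/- mice, and rose by 0.14 (SE 0.047, adjusted p = 0.0198). Of its exonic bases, 24.6% overlap Gm26852. Mre11a fell by 0.16 (SE 0.0408, adjusted p = 0.00247) and Ercc6 by 0.13 (SE 0.0426, adjusted p = 0.0206), and with total counts neither Mre11a (adjusted p = 0.0737) nor Ercc6 (adjusted p = 0.251) passed, as was so on the FPKM values (adjusted p = 0.0685 and adjusted p = 0.271). The glycosylase nearest the threshold was Nthl1 (log2 0.30, SE 0.114, adjusted p = 0.0518), and it passed as higher without the 4 libraries, with total counts, on the FPKM values, with the stricter filter and by DESeq2. On this background 9 of 10 spiny projection neuron markers fell and 1 rose, and their part was not tested.

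In Q140 x Msh3-/- mice against Msh3-/- mice, 2 members passed (4.17%), against 7.86% of all genes. Xrcc5 had a lowest, median and highest value of 17.5, 18.0 and 19.5 CPM in Q140 x Msh3-/- mice, against 14.8, 16.2 and 17.7 CPM in Msh3-/- mice. It rose by 0.18 (SE 0.0466, adjusted p = 0.00989), with all 8 Q140 x Msh3-/- mice above the Msh3-/- mean. Fancd2 had 3.37, 4.14 and 4.92 CPM in Q140 x Msh3-/- mice, against 4.26, 5.36 and 6.89 CPM in Msh3-/- mice. It fell by 0.34 (SE 0.105, adjusted p = 0.031), a call lost with a term for plate column (adjusted p = 0.0501) and on the FPKM values (adjusted p = 0.0677). Prkdc, which passed on both other backgrounds, differed by 0.02 (SE 0.0636) here, and Mre11a by 0.00 (SE 0.0407). The split was 2 higher and 1 lower with total counts, against 9.51% of all genes. On the FPKM values it was 3 higher and 0 lower, against 9.76% of all genes. Without the 4 libraries, of which 3 belong to these 2 groups, it was 1 higher and 2 lower, against 6.57%. Of the 10 spiny projection neuron markers, 9 fell and 0 rose here, and their part was not tested.

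**Figure D5:**
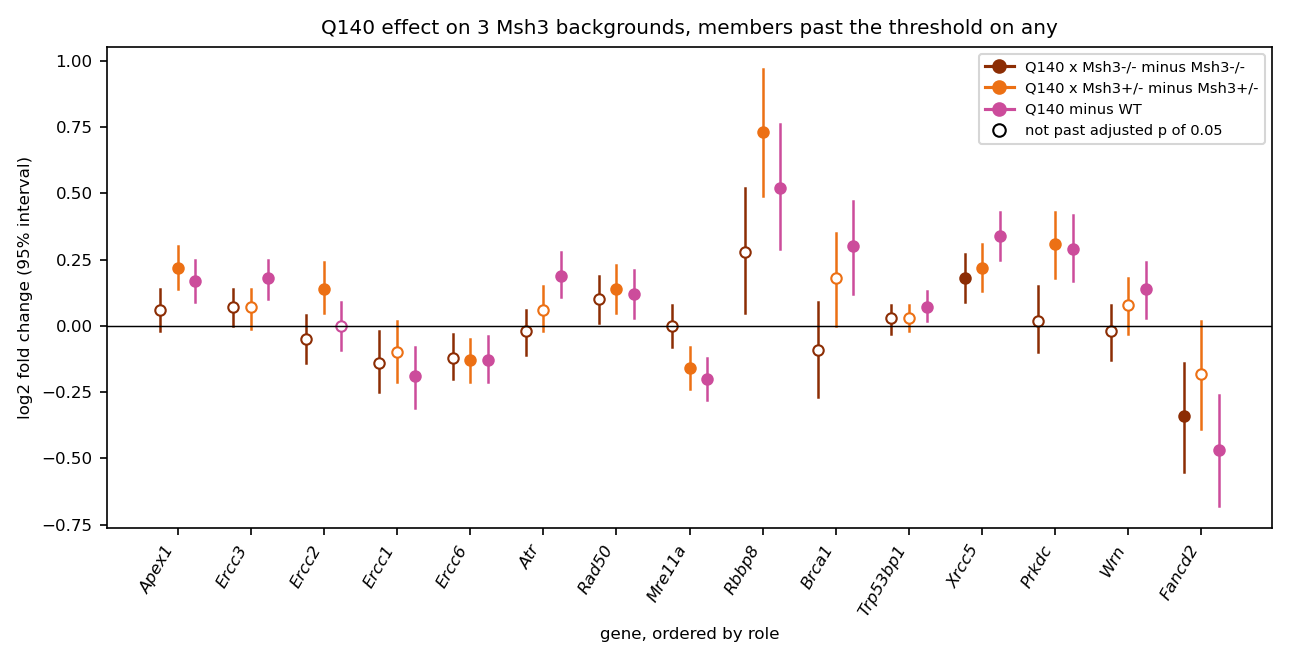
Log2 fold change with its 95% interval of the Q140 effect in the Msh3-/-, Msh3+/- and WT backgrounds for the 15 members that passed on any of them. Filled points passed an adjusted p of 0.05, 2 on Msh3-/-, 8 on Msh3+/- and 14 on WT, and Xrcc5 is filled on all 3.

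Whether the Q140 effect itself differed between backgrounds was tested by an interaction. For Msh3-/-, 2 members passed, 1 higher and 1 lower, against 6.15% of all genes. Mre11a had an interaction of 0.20 (SE 0.0576, adjusted p = 0.0279), with a Q140 effect of 0.00 on Msh3-/- and -0.20 on WT. Atr had an interaction of -0.21 (SE 0.0612, adjusted p = 0.023), with a Q140 effect of -0.02 on Msh3-/- and 0.19 on WT. The kinase gene had a lowest, median and highest value of 25.7, 29.6 and 32.3 CPM in Q140 x Msh3-/- mice, against 28.3, 30.5 and 31.1 CPM in Msh3-/- mice, so the cross was not above its background. With total counts the split was 0 higher and 4 lower, with Mre11a lost (adjusted p = 0.119). Under that scaling 8.78% of all genes passed, 537 higher and 1194 lower. On the FPKM values the split was 0 higher and 5 lower, with Mre11a lost too (adjusted p = 0.116), against 8.88% of all genes. With no filter Mre11a was also lost (adjusted p = 0.0631). The Atr call was lost without the libraries of other name prefixes (adjusted p = 0.0828).

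Brca1 (log2 -0.39, SE 0.127, adjusted p = 0.0538), Prkdc (-0.27, SE 0.0898, adjusted p = 0.063), Ung (0.49, SE 0.168, adjusted p = 0.0696) and Xrcc5 (-0.16, SE 0.0657, adjusted p = 0.136) did not pass the interaction with Msh3-/-. For Brca1, Prkdc and Xrcc5 this depended on the setting. With total counts and on the FPKM values all 3 passed as lower, by DESeq2 Brca1 and Prkdc did, with the stricter filter Brca1 did, and without the 4 libraries Prkdc did. For Msh3+/-, 0 of 48 members passed the interaction by edgeR and 0 by DESeq2, with 3 at an unadjusted p under 0.05, and 0.0152% of all genes passed.

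Differences between the sexes were tested by modelling the 12 combinations of genotype and sex separately. For the Q140 effect, 0 of 48 members passed by edgeR and 0 by DESeq2, with 3 at an unadjusted p under 0.05, and 0% of all genes passed. For the Q140 x Msh3-/- minus Q140 effect, 0 members passed by edgeR and 0 by DESeq2, with 2 at an unadjusted p under 0.05, and 0% of all genes passed. Wrn had the smallest p for that effect, with a difference of -0.30 for females minus males (SE 0.1, adjusted p = 1). These tests rest on 4 mice of each sex per genotype.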

How the data were processed

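RNA from the striatum of 48 mice was sequenced from stranded TruSeq libraries, per the labels' protocols. The authors deposited whole-number counts per gene and FPKM values for 48795 genes. Per the submitters' processing notes, GRCm38 was used with HTSeq 0.12.3, STAR 2.7.5c and SAMtools 1.10. Neither the annotation release nor the strand setting of the counting is stated there, and 22 members have exons that overlap another gene, 8 of them over at least 10% of exonic bases. The deposited FPKM values were the counts rescaled by length and library total (largest relative deviation 8e-08 over 16336 genes).

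Groups, sexes and replicate numbers came from the sample titles, and columns were matched by name. A single model of genotype plus sex over the 48 libraries (41 residual degrees of freedom) was fitted to the counts by edgeR 4.0.16 under R 4.3.3, with TMM scaling, filterByExpr at a minimum count of 10 and the robust quasi-likelihood test. The filter kept 19714 genes and removed 29081. Benjamini-Hochberg adjustment ran across the 19714 genes with 0.05 as the threshold. Unless another tool is named, each adjusted p comes from this edgeR test, which sets a difference between groups against the spread between mice. Fold changes are log2 with their standard error (SE). The fit was tested on simulated data.

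Alternatives were DESeq2's size factors, total counts, no filter, a stricter filter (at least 1 CPM in 8 libraries), a replicate block and no sex term. Further ones were leaving out 4 libraries whose names carry other prefixes than Mh3Q, a term for plate column, limma 3.58.1 on log2(FPKM + 0.1), and DESeq2 1.42.0. Leaving out the 4 libraries farthest on the first component of the residual variation (9.3% of it) was added after seeing the data. With 8 mice per group, single mice were not left out in turn.

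The members and lists were chosen with earlier results of these data known. Members past the threshold are named by role, with values for up to 4 per role, and for each other list the up to 3 genes with the smallest adjusted p in Q140 minus WT. Promoters were matched by symbol in RefSeq's table for GRCm38.p6, which held 39 of the 49 members. Shld3 was not analysed here.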

Additional observations from a re-analysis of the deposited data

Results flagged for a closer look

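In 7 of 90 groups of 8 mice (15 members in 6 genotypes), 1 mouse lay far from the others by Dixon's criterion, which chance meets in about 1 in 20 groups. Prkdc gave 3 of them: male 1 of Q140 x Msh3-/- at 87.6 CPM (next value 73.7), female 1 of Q140 x Msh3+/- at 99.2 CPM (next 85.2) and female 2 of Q140 at 67.4 CPM (next 77.8). Those from the crosses are libraries that stood apart in the residual variation. Brca1 gave 2: female 3 of Q140 at 4.64 CPM (next 5.4) and male 3 of WT at 3.03 CPM (next 4.34). Ercc1 was at 24.4 CPM in female 1 of Q140 x Msh3+/- (next 22.2), the same library that gave the Prkdc value of 99.2 CPM. Ercc2 was at 33.0 CPM in female 2 of Msh3+/- (next 29.3).

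The Q140 effect differed between the Msh3-/- and WT backgrounds for Mre11a (log2 0.2, edgeR adjusted p = 0.0279) and Atr (log2 -0.21, edgeR adjusted p = 0.023).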

How the results depend on the processing

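No called value changed sign under the 11 alternatives. Of 33 called values of members, 18 passed under all 11 and 15 were lost under 1 or more. Counts of members that moved by more than 1.5 times follow, and for those the cause was not tested. In Q140 minus WT, where 14 passed, 24 passed with total counts and 24 with limma on FPKM. Of all genes, 5773 were higher and 2064 lower with total counts, and 5821 higher and 2065 lower with limma on FPKM. In Q140 x Msh3-/- minus Q140, where 6 passed, 10 passed with total counts and 12 with limma on FPKM, against 21.1% and 20.9% of all genes. Only 3 passed both with no filter and without the libraries of the other name prefix, against 7.71% and 12.7% of all genes. Between the Q140 crosses, where 1 passed, 2 passed with total counts, limma on FPKM and DESeq2, against 4.72%, 4.49% and 4.31% of all genes. There were also 2 without the 4 libraries that stood apart, a setting chosen after seeing the data, against 3.45% of all genes. In Q140 x Msh3+/- minus Msh3+/-, where 8 passed, 18 passed with total counts and 17 with limma on FPKM. The shares of all genes there were 29.7% and 29.8%. In Q140 x Msh3-/- minus Msh3-/-, where 2 passed, 1 passed with a plate column term, against 6.48% of all genes. In the interaction with Msh3-/-, where 2 passed, 4 passed with total counts and DESeq2 and 5 with limma on FPKM. The shares of all genes were 8.78%, 7.45% and 8.88%. Only 1 passed both with no filter and without the libraries of the other name prefix, against 2.73% and 4.13% of all genes. Same-numbered mice did not deviate together (median r -0.028 over 120 pairs, range -0.287 to 0.366), and 3 of 48 libraries correlated best with their own number, so the numbers do not pair the samples. With the replicate block 13 members passed in Q140 minus WT, against 33.1% of all genes, and 6 in Q140 x Msh3-/- minus Q140, against 16.4%. It gave 9 in Q140 x Msh3+/- minus Msh3+/-, against 21.6%, and 2 in Q140 x Msh3-/- minus Msh3-/-, against 7.8%. In the interaction with Msh3-/- 3 passed, against 6.08% of all genes. The block lost Wrn in Q140 minus WT (adjusted p = 0.0516, edgeR) and Fancd2 in Q140 x Msh3-/- minus Q140 (adjusted p = 0.0506, edgeR). It gained Prkdc in the same comparison and in the interaction, and Nthl1 in Q140 x Msh3+/- minus Msh3+/-. Depth limits the rarest members: Rad51b could not be tested under the filter, and Neil3 had an SE of 0.48 in Q140 minus WT.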
